A study of Mus musculus with 6 samples.

Results

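CpG-poor promoters were examined for binding of HA-tagged CDK6 in murine leukemic pre/pro-B cells. The rule for membership uses sequence alone. Of 21755 protein-coding genes of GENCODE vM21 on chromosomes 1 to 19 and X of mm10, 7905 had a CpG observed to expected ratio below 0.35 within 500 bp to each side of the gene start and formed the CpG-poor class, and the other 13850 served for comparison. The promoter of a gene was the window that began 2000 bp before its start and ended 200 bp after it, and it was scored as having a peak when at least 1 bp of it was covered.

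The series comprised ChIP-seq with an antibody against the HA tag in mouse pre/pro B cell lines that were Cdk6-/- and BCR-ABL(p185)+. Cells overexpressed either HA-tagged wildtype CDK6 (CDK6-WT, n = 2 libraries) or the HA-tagged kinase-inactive mutant CDK6-K43M (n = 2 libraries) from a retroviral plasmid with a GFP marker, and all were crosslinked with DSG followed by formaldehyde. Both groups thus lacked endogenous CDK6, carried the same oncogene, delivered by a retrovirus, and differed by the CDK6 variant. The 2 input libraries were not analysed here. The labels do not say whether replicates were separate lines, cultures or precipitations, so the p-values below measure the spread between these libraries, which may be technical. The data are peak lists and do not measure expression, and the cell type named in the labels cannot be checked against RNA markers here.

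Promoters fall into CpG-rich and CpG-poor kinds. CpG-rich promoters belong mostly to genes used in nearly every cell, whereas CpG-poor promoters carry more TATA boxes and belong largely to genes used in a single tissue or cell type, where lineage factors bind at the promoter or at enhancers close to it. CDK6 is a cyclin D-dependent kinase without a DNA-binding domain of its own and reaches chromatin through other proteins. The K43M mutation lies in the ATP-binding site. Setting the mutant against the wildtype asks how far occupancy of these promoters depends on the kinase activity.

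Sequences that extend 50 bases either way from the strongest summit are shown first for 6 of the 8 highest-ranking CpG-poor promoters for which a stretch could be printed, to show the base composition at these sites and which of the tested motif words they hold. They were read from the RefSeq GRCm38.p6 (mm10) genome in the direction of the gene. Capitals mark matches to any of 15 motif words, which are spelled out with the motif results.
Igll1, chr16:16864061-16864161, minus strand: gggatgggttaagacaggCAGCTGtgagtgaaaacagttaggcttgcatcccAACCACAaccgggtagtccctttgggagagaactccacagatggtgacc
Rac2, chr15:78572790-78572890, minus strand: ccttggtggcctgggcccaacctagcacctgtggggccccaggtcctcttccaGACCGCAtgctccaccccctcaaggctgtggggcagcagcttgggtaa
Apobec4, chr1:152749417-152749517, plus strand: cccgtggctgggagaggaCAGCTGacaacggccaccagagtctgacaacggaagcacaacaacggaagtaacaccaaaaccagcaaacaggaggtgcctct
Fchsd2, chr7:101092731-101092831, plus strand: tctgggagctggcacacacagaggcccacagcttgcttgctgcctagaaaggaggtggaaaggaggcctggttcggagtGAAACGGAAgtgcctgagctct
Mknk2, chr10:80678296-80678396, minus strand: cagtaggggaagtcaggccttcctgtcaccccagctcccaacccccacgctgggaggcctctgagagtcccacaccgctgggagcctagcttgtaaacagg
Tespa1, chr10:130322792-130322892, plus strand: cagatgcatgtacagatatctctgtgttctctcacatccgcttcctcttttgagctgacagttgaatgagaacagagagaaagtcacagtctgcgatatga
In the stretch of Igll1, which encodes the surrogate light chain component lambda5 of the pre-B cell receptor, an E-box word and a RUNX word were found, with the summit 126 bp upstream of the start. In that of Rac2, a small GTPase of blood cells, there was a RUNX word, with the summit 57 bp upstream of the start. The stretch of Apobec4 held an E-box word, with the summit 1084 bp upstream, and that of Fchsd2, which encodes an F-BAR protein of membrane traffic, an IRF word, with the summit 82 bp upstream. The stretches of Mknk2 and Tespa1 held none of the words. CG dinucleotides numbered 1 in Igll1, 1 in Rac2, 4 in Apobec4 and 2 each in Fchsd2, Mknk2 and Tespa1. The stretch of Tespa1 covered 16 bases of annotated untranslated exon. For Parp16 and Phf11c, the other two of these 8, summits lay 1075 bp downstream and 1740 bp upstream of the start and no word matched.

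The next sequences are from B-lineage genes with a peak in all 4 lists, chosen after their sequences were searched because each held a word for RUNX, EBF or E-box proteins.
Fcrla, chr1:170928689-170928789, minus strand: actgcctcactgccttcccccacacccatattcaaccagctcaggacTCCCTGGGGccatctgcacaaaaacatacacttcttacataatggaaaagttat
Pou2af1, chr9:51213174-51213274, plus strand: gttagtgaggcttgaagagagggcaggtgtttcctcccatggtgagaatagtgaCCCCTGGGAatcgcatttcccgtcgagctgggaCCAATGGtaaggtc
Il7r, chr15:9529822-9529922, minus strand: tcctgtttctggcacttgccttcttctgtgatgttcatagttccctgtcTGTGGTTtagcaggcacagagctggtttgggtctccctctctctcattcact
Cd79b, chr11:106314574-106314674, minus strand: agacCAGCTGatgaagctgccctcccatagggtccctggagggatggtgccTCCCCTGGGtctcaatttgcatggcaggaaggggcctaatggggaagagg
Fcrla, a protein related to Fc receptors, carried the EBF word, Pou2af1, a coactivator of octamer factors, the EBF and NFY words, Il7r, the receptor for the pre-B cell growth factor IL-7, a RUNX word, and Cd79b, a signalling chain of the B cell receptor, the E-box and EBF words. The stretches of Fcrla, Il7r and Cd79b held no CG dinucleotide (0 each) and that of Pou2af1 held 3. The stretch of Pou2af1 surrounds the summit of CDK6-K43M replicate 1, 484 bp upstream, and the strongest peaks of the replicate 2 lists lay elsewhere. Annotated untranslated exon covered 14 bases in Il7r and 10 in Cd79b. Such matches are a description of the letters and not evidence that a factor bound.

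Few CpG-poor promoters had CDK6 peaks, and those that had them were largely the same in CDK6-WT and CDK6-K43M libraries of the same replicate number. A peak was present in at least 3 of the 4 lists, a rule the study set for regions and which is applied here to promoter windows, at 483 of 7905 CpG-poor promoters (6.11%, 95% Wilson interval 5.60 to 6.66%), against 36.3% of all protein-coding promoters and 53.5% of the other class. These 483 promoters are called bound hereafter. When the peaks of all lists were first merged into regions, 564 regions that overlapped a CpG-poor promoter met the rule. This is a count of regions, and 1 promoter can hold several. A peak in all 4 lists was found at 350 CpG-poor promoters (4.43%), where the share over all promoters was 28%, and a peak in at least 1 list at 913 (11.5%), where it was 46.9%. The remaining 6992 CpG-poor promoters had no peak in any list. The Wilson intervals cover counting error only.

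The share of CpG-poor promoters with a peak was close in the 4 libraries. It was 7.77% (614 promoters) in CDK6-WT replicate 1, where 42.6% of all promoters had a peak, and 7.41% (586) in CDK6-WT replicate 2, where 34.9% did. In CDK6-K43M replicate 1 it was 8.63% (682), against 44% of all promoters, and in replicate 2 it was 7.62% (602), against 33.9%. The mean share was 7.86% ± 0.535 (SD, n = 4) for CpG-poor promoters and 56.5% ± 7.90 (SD, n = 4) for the others. The difference of -48.7 percentage points had the same sign in 4 of 4 lists, with an exact two-sided sign-flip permutation p of 0.13, the smallest that 4 lists allow. The lists held 35189 and 34729 peaks for CDK6-WT and 39797 and 37304 peaks for CDK6-K43M, of which 2.06 to 2.16% overlapped a CpG-poor promoter. The lists hold no read totals, so the depth behind each is unknown.

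Within the CpG-poor class the bound share rose with the CpG ratio. It was 0.384% (2 of 521) at ratios below 0.05, 4.12% (69 of 1674) from 0.10 to 0.15, 7.71% (92 of 1194) from 0.20 to 0.25 and 11.8% (94 of 799) from 0.30 to 0.35. Just beyond the limit, from 0.35 to 0.40, it was 12.95% (93 of 718), and it reached 49.5% (1265 of 2554) from 0.60 to 0.70. There was no step at the limit of 0.35. The 3 genes just inside, Ankrd23 (0.34976), Cyb5r2 (0.34977) and Myt1l (0.34983), and the 3 just outside, Slc2a10 (0.35002), Gpr151 (0.35011) and Syn3 (0.35032), had a peak in 0 of the 4 lists.

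**Figure D1:**
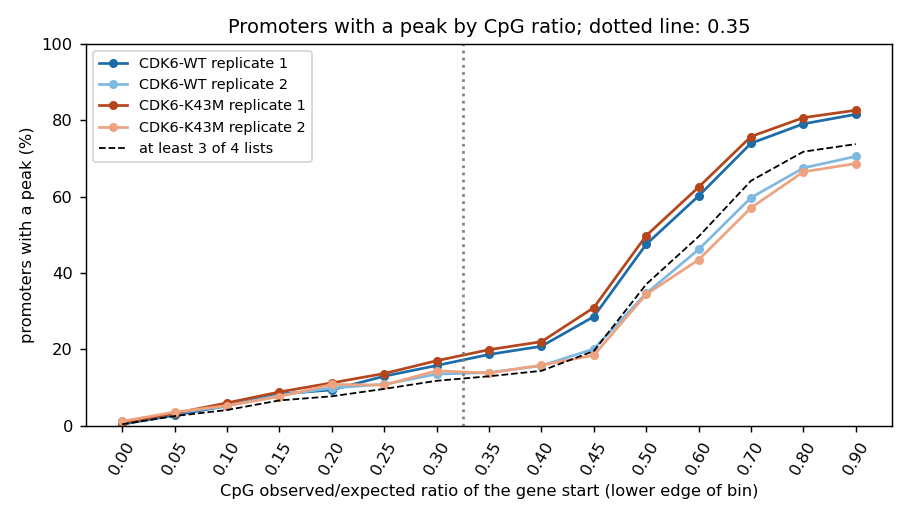
Share of promoters with a peak (%, y axis) by CpG observed to expected ratio of the gene start (x axis, lower edge of each bin) for each of the 4 lists, with the share in at least 3 lists as a dashed line. Below the dotted line at 0.35 the 4 lists lie close together, and above it both replicate 1 lists run higher than both replicate 2 lists.

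Bound CpG-poor promoters were themselves richer in CpG and GC than those without a peak. The median ratio was 0.222 at the 483 bound promoters and 0.160 at the 6992 without a peak, and the median GC content was 50.6% and 45.1%. Repeat-masked sequence made up a median of 21.0% of the bound windows and 24.4% of the windows without a peak. The TATA word TATAAA, searched between 40 and 20 bases before the start on the sense strand, was present at 2.28% of bound and 5.03% of peak-free CpG-poor starts, and at 0.910% of starts in the other class. These values describe the starts and carry no test.

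Not every peak in a CpG-poor window stood alone there. Of the 483 bound promoters, 39 (8.07%) overlapped the window of a protein-coding gene of the other class, 135 (28.0%) belonged to a gene with a CpG-richer alternative transcript start, and at 404 (83.6%) the sequence at the summit was itself below a ratio of 0.35. At 291 (60.2%) the window overlapped no window of the other class, the gene had no CpG-richer start and the summit was below 0.35. The bound share was 5.72% (444 of 7756) among CpG-poor promoters with no overlapping window of the other class and 26.2% (39 of 149) among those with one. In addition, 34 of the 483 (7.04%) shared a strongest peak with another CpG-poor promoter.

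Windows of the same size were moved 10000 bp further upstream to give the level at which any stretch near these genes met a peak. At CpG-poor genes 4.56% ± 0.673 (SD, n = 4) of such windows had a peak, against 7.86% at the promoter, a difference of 3.30 percentage points with the same sign in 4 of 4 lists (exact sign-flip permutation p = 0.13, two-sided) and a ratio of 1.72. For the other class the ratio was 8.10. By the rule of at least 3 lists, 284 shifted windows of CpG-poor genes were bound (3.59%), next to the 483 promoters.

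The 15 highest-ranking CpG-poor promoters were those with a peak in all 4 lists and the highest mean percentile of the strongest peak, where the percentile ranks a peak by the authors' -log10 q within its own list, and none of their peaks touched a window of the other class. Apobec4, a member of the APOBEC deaminase family, led with percentiles of 99.0 and 98.4 in CDK6-WT replicates 1 and 2 and 99.1 and 97.2 in CDK6-K43M replicates 1 and 2, at fold enrichments of 21.6, 16.4, 21.8 and 14.7. Its summits lay 1084 to 1137 bp upstream of the start. Parp16 had percentiles of 94.5, 99.9, 96.9 and 99.6 in the same order, with summits 904 to 1099 bp downstream, beyond the window, and a CpG ratio of 0.380 at the summit. The gene has a CpG-richer start.

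Among the genes with a known place in B cells, Igll1 had percentiles of 99.7 and 95.8 with CDK6-WT and 99.0 and 90.0 with CDK6-K43M, at fold enrichments of 21.9, 13.5, 18.8 and 10.5. Bank1, a scaffold of B cell receptor signalling, had 90.2, 99.3, 94.9 and 99.4 in the same order of lists. The ranking of the lists thus differed between them, with Igll1 higher in both replicate 1 lists and Bank1 higher in both replicate 2 lists. Of the small GTPases and their regulators, Rac2 ranked at 96.7, 96.4, 95.6 and 95.7, and Arhgap25, a GTPase-activating protein of leukocytes, at 95.8, 97.4, 97.2 and 99.0. The strongest summit at Rac2 lay 1692 bp upstream in CDK6-K43M replicate 2 and 57, 69 and 66 bp upstream in the other lists. Def6, an exchange factor of lymphocytes, ranked at 94.7, 98.6, 83.4 and 98.3.

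Other leading genes act mainly in other blood cells or have no known place there. Ncf4, a subunit of the phagocyte NADPH oxidase, had percentiles of 98.1, 91.3, 98.9 and 94.6, and Csf2rb, the common beta chain of the IL-3, IL-5 and GM-CSF receptors, had 85.2, 99.9, 95.6 and 99.8. Csf2rb showed the larger gap between replicate numbers, with fold enrichments of 11.9 and 15.5 in the replicate 1 lists and 29.5 and 26.9 in the replicate 2 lists. Tespa1, an adaptor of thymocyte selection, had 89.9, 97.0, 92.2 and 95.9. Mknk2, a kinase of the translation factor eIF4E, had 96.1, 95.6, 90.9 and 93.4, and Fchsd2 had 96.7, 99.7, 82.5 and 99.8. Mknk2 and Fchsd2 have a CpG-richer start. Phf11c, Gm10392 and Cabp4, a calcium-binding protein known from photoreceptors, had mean percentiles of 95.6, 93.8 and 93.6. At all 15, each of the 4 lists placed the peak above a percentile of 82.

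**Figure D2:**
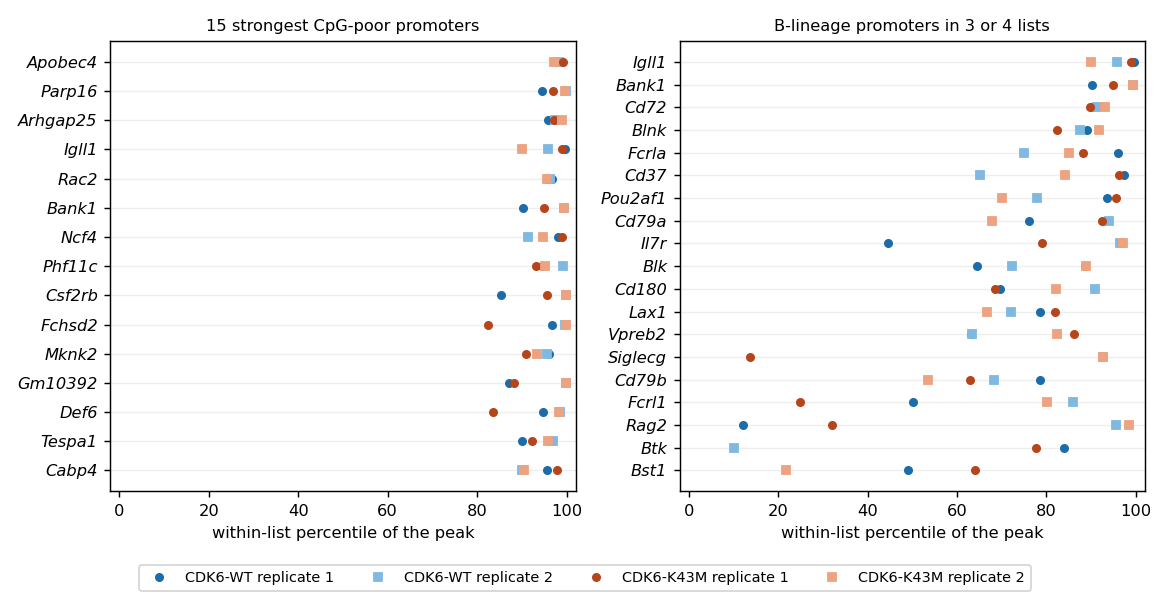
Within-list percentile of the strongest peak (x axis) for the 15 highest-ranking CpG-poor promoters (left) and B-lineage promoters with a peak in 3 or 4 lists (right), with blue symbols for CDK6-WT, red symbols for CDK6-K43M, circles for replicate 1 and squares for replicate 2. On the right, Il7r and Rag2 sit higher in both replicate 2 lists, and Fcrla and Pou2af1 higher in both replicate 1 lists. At Pou2af1 the strongest peaks of the replicate 2 lists lay at other sites than those of the replicate 1 lists.

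Genes of the B lineage and genes common to leukocytes were those at which CpG-poor promoters had peaks most often among the 9 gene lists examined. Of 31 CpG-poor promoters in the B-lineage list, 20 were bound (64.5%, Wilson interval 46.9 to 78.9%), 17 of them in all 4 lists, with a median percentile of 78.9. Of 42 in the general leukocyte list, 32 were bound (76.2%, interval 61.5 to 86.5%), 25 of them in all 4 lists, with a median percentile of 69.6. The share over all CpG-poor promoters was 6.11%. The lists were drawn up with earlier results of these data known, and these shares carry no test. In windows moved 10000 bp upstream, 5 of the 31 and 3 of the 42 met the same rule.

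Within the B-lineage list the bound promoters covered receptor chains, coreceptors, signalling proteins and recombination. Of the receptor components Igll1, Vpreb2, Cd79a and Cd79b had a peak in all 4 lists, and Vpreb3 in 1. Cd79a, the partner chain of Cd79b, had percentiles of 76.1, 94.0, 92.4 and 67.7, so that neither variant nor replicate number ordered the values. Of the surface molecules Cd72, Cd180, Cd37, Fcrla and Fcrl1 had a peak in all 4 lists and Siglecg and Bst1 in 3. Fcrla had percentiles of 96.1, 75.1, 88.2 and 85.1, and Cd72, an inhibitory coreceptor, had 90.3, 91.3, 89.7 and 93.0. Summits at Cd72 lay within 8 bp of the start in every list, whereas those at Fcrla lay 1031 to 1156 bp upstream.

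Of the signalling proteins Blnk, Blk, Bank1 and Lax1 had a peak in all 4 lists and Btk in 3. Blnk, the adaptor downstream of the pre-B cell receptor, had percentiles of 89.1, 87.6, 82.3 and 91.8. Its strongest summit lay 1225 bp upstream in CDK6-K43M replicate 2 and 320, 335 and 278 bp downstream in the other lists. The peak at Btk, the Bruton tyrosine kinase gene, overlapped a window of the other class and its summit had a CpG ratio of 0.741, and the peak at Cd37 also overlapped such a window. Il7r and the coactivator gene Pou2af1 had a peak in all 4 lists, at mean percentiles of 79.3 and 84.2. The mean of Pou2af1 joins different sites. Its strongest summits lay 506 and 484 bp upstream in the replicate 1 lists. In CDK6-WT and CDK6-K43M replicate 2 they lay 2380 and 2 bp upstream.

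Promoters of the recombination machinery differed between replicate numbers. Rag2, a subunit of the recombinase, had percentiles of 12.2 and 95.5 in CDK6-WT replicates 1 and 2 and 32.1 and 98.4 in CDK6-K43M replicates 1 and 2. Rag1, the other subunit, and Dntt, the terminal transferase, were covered in each replicate 2 list and in neither replicate 1 list, as were Cd38, Fcmr and Ms4a1. These 5 were the B-lineage members with that pattern, and 0 had the opposite one. Over all promoters 1.14% had peaks in the replicate 2 lists alone and 6.1% in the replicate 1 lists alone, and over CpG-poor promoters 1.29% and 1.68%. Cd22 and Fcrl5 had a peak in 1 list, and Cxcr5, Fcer2a and Spib in none.

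In the general leukocyte list, Rac2 was followed by Cd53, a tetraspanin, with percentiles of 91.6, 98.7, 86.2 and 97.5, Ptpn6, the phosphatase SHP-1, with 97.1, 77.8, 97.1 and 92.3, and Ptpn22, a phosphatase of antigen receptor signalling, with 81.7, 98.1, 85.1 and 97.6. The summits at Ptpn6 lay 2197 to 2383 bp upstream, in sequence with a CpG ratio of 0.731 that belongs to a window of the other class. Selplg, the ligand of P-selectin, had 98.7, 75.3, 99.6 and 82.0, and Nckap1l, a subunit of the actin-regulating WAVE complex, had 86.8, 94.8, 84.7 and 87.8. Ptpn6, Ptpn22 and Selplg have a CpG-richer start. Weaker peaks were present at Ptprc, which encodes CD45, with 3 lists and a mean percentile of 29.4, and at Lsp1 with 3 lists and 6.90. Cd74, Ptprcap and Itgb7 were among the members of this list with no peak.

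Lists of other blood lineages had lower bound shares. In the myeloid list 9 of 41 CpG-poor promoters were bound (22.0%, interval 12.0 to 36.7%), led by Ncf4 and Csf2rb, with Tlr4 at percentiles of 90.4, 95.7, 85.1 and 95.2 and Csf2rb2 at 70.8, 95.6, 43.1 and 99.3. Ncf1, a further oxidase subunit, and the receptor gene Trem1 had a peak in all 4 lists, and Mmp9, Tyrobp and the lysozyme gene Lyz2 in 3, at mean percentiles of 59.3, 41.6, 49.6, 41.4 and 21.7. The summits at Mmp9 lay 1835 to 1910 bp upstream, in sequence with a CpG ratio of 0.587. Mmp9 and Ncf1 have a CpG-richer start. Of the defining genes Lyz2 was thus bound, whereas Mpo, Elane, Csf1r, Itgam, S100a8 and S100a9 had no peak. In the T and NK list 6 of 39 were bound (15.4%, interval 7.25 to 29.7%), namely Cd2, Klrd1, Lat, Sh2d2a, Lck and Cd5, while Cd3d, Cd3e, Cd3g, Cd4 and Zap70 had no peak. Cd2 had percentiles of 85.1, 88.1, 92.6 and 96.5, with summits 1684 to 1795 bp upstream. Windows moved 10000 bp upstream met the rule at 4 of the 41 myeloid genes (9.76%) and at 5 of the 39 T and NK genes (12.8%), close to the 6 promoters of the latter. In the erythroid and megakaryocyte list 1 of 23 was bound, Gfi1b, which encodes a transcriptional repressor.

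Of the promoters of genes of non-blood tissues 2.44% were bound (2 of 82, interval 0.671 to 8.46%), an interval that holds the 6.11% of all CpG-poor promoters. None of 26 promoters in the liver list (0 of 26, interval up to 12.9%) was bound. The skin and gut epithelium list, which also holds pancreas genes such as Ins1, Ins2, Prss1 and Cpa1, had no bound promoter either (0 of 25, interval up to 13.3%). For muscle it was 1 of 17, Tnni2. In the eye and nerve list, which also holds the pituitary hormone genes Gh and Prl, it was 1 of 14, Gh. The summits at Gh lay 2097 to 2115 bp upstream of the start, outside the window. For B lineage and general leukocyte genes together the bound number was 52 of 73 (71.2%).

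**Figure D3:**
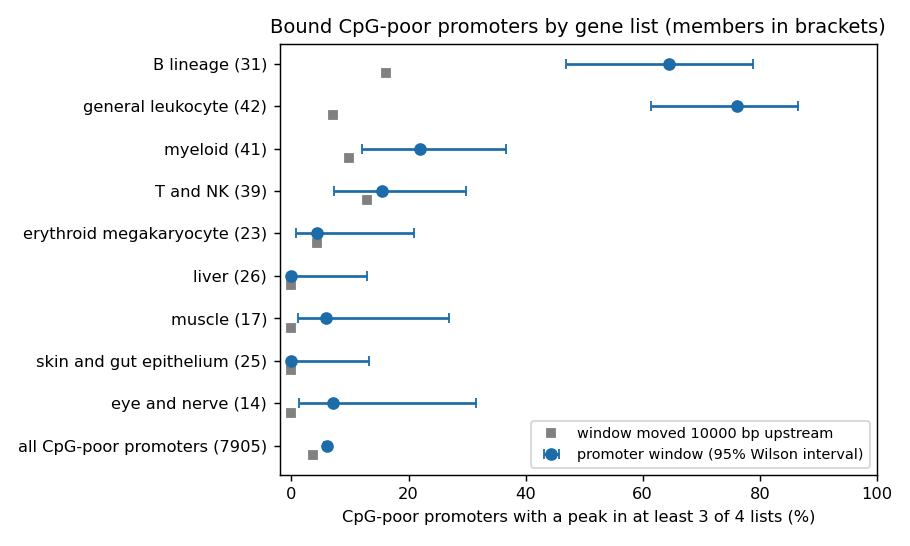
Share of CpG-poor promoters with a peak in at least 3 of 4 lists (%, x axis) for 9 gene lists and for all CpG-poor promoters, with 95% Wilson intervals, and the share for windows moved 10000 bp upstream as grey squares. The B-lineage (64.5%) and general leukocyte (76.2%) lists stand above all other lists, and their shifted windows lie at 16.1% and 7.14%.

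Gene families differed in the share bound. Of 1126 CpG-poor olfactory receptor promoters 1 was bound, Olfr1394 in 3 lists. None of 327 vomeronasal receptors, 47 taste and trace amine receptors, 63 defensins and 84 keratins and keratin-associated proteins was bound. These families made up 1647 of the 7905 members, and without them the bound share was 7.70% (482 of 6258). Among families with immune functions, 6 of 8 GIMAP GTPases, 14 of 70 genes with CD symbols, 9 of 37 interferon-induced GTPases and Ifi proteins and 7 of 57 interleukins and their receptors were bound. Among the 9, Gbp8, Gbp9 and Gbp4 had the same mean percentile of 31.7, and Gbp8 and Gbp9 share their peaks. The 6 GIMAP genes, which encode GTPases of lymphocyte survival, were Gimap3, Gimap1, Gimap5, Gimap8, Gimap6 and Gimap9, each in all 4 lists with mean percentiles of 68.1 to 83.4. Other immune families had no bound promoter, namely 26 chemokines, 19 MS4A proteins, 16 type I interferons, 14 Ly6 proteins and 14 granzymes and mast cell proteases (0 each). Upper limits of their Wilson intervals were 12.9, 16.8, 19.4, 21.5 and 21.5%, in that order. Each interval holds the 6.11% of all CpG-poor promoters. So do those of the interleukins and their receptors (6.08 to 23.2%) and of the taste and trace amine receptors (up to 7.56%). Of 1257 predicted genes with Gm or Rik symbols 32 were bound (2.55%).

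Peaks also occurred at starts with almost no CpG. The bound promoters of lowest CpG ratio whose peaks touched no window of the other class were Serpina3f (0.0542), Gbp9 (0.0543) and Gbp8 (0.0545). Serpina3f, a serine protease inhibitor, had percentiles of 42.5 and 83.0 in CDK6-WT replicates 1 and 2, and of 1.94 and 84.0 in those of CDK6-K43M. The interferon-induced GTPase genes Gbp9 and Gbp8 start 1 bp apart and share their peaks, which had percentiles of 40.9, 25.5, 52.7 and 7.80 in the same order.

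Peaks at CpG-poor promoters were less reproducible between lists than those of the other class. Among CpG-poor promoters with a peak in any list, 38.3% had one in all 4 lists and 19.2% in a single list, whereas in the other class these shares were 61.8% and 4.75%. Within replicate 1, 569 CpG-poor promoters had a peak in both variants, which was 92.7% of those with a CDK6-WT peak and 83.4% of those with a CDK6-K43M peak. Within replicate 2 the number was 499, which was 85.2% and 82.9%. In the other class these shares were 98.4% and 95.7% within replicate 1 and 85.5% and 88.4% within replicate 2. The classes were thus close for CDK6-WT peaks in replicate 2. Sharing between replicates of one variant was counted for CpG-poor promoters only. Between replicates of CDK6-WT 415 promoters were shared, 67.6% of those in replicate 1 and 70.8% of those in replicate 2, and between replicates of CDK6-K43M 435, which was 63.8% and 72.3%. In each case libraries of one replicate number but different variants shared more CpG-poor promoters than libraries of one variant.

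The kinase-inactive mutant occupied CpG-poor promoters in numbers that did not differ detectably from the wildtype. CpG-poor promoters with a peak numbered 600 ± 19.8 in CDK6-WT and 642 ± 56.6 in CDK6-K43M lists (SD, n = 2 each). For the difference of 42 promoters the exact permutation test, two-sided, gave p = 0.667, and 2 lists against 2 cannot give a p below 0.333. Within replicate 1 the CDK6-K43M list had 68 more, and within replicate 2 it had 16 more, beside 4608 and 2575 more peaks in the whole list. With the top 10000 peaks of each list the difference turned to -7.5 promoters.

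Promoters found with one variant alone were rare. Peaks in each CDK6-WT list but neither CDK6-K43M list occurred at 5 CpG-poor promoters (0.0633%), against 0.106% of all promoters. They were Slamf9, Gm11437, Gdf5, Ifi209 and Dhx58. Slamf9, a receptor of the SLAM family, had percentiles of 50.6 and 53.6, and Dhx58, the RIG-I-like receptor LGP2, had 21.9 and 5.63. The opposite, CDK6-K43M peaks alone, occurred at 12 CpG-poor promoters (0.152%), against 0.262% of all promoters. The 5 with the highest percentiles were 4930518I15Rik (25.8 and 87.5), Pcp4 (55.2 and 36.2), A530032D15Rik (32.1 and 52.0), Nlrp1a (20.8 and 52.0) and Rasal3 (8.72 and 61.2). Mean percentiles were 13.8 to 52.1 for the promoters of the first kind and 35.0 to 56.6 for these 5, so that all of them stood well below the 15 leading promoters.

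Promoters that followed the replicate number were more frequent and included strong peaks. Peaks in each replicate 1 list and neither replicate 2 list were found at 133 CpG-poor promoters (1.68%), against 6.1% of all promoters, and the reverse at 102 (1.29%), against 1.14%. In the other class the counts were 1193 and 146. Atp5j2, which encodes a subunit of the ATP synthase and has a CpG-richer start, had percentiles of 99.9 in CDK6-WT and 99.8 in CDK6-K43M replicate 1, with the summits 494 and 462 bp downstream, and no peak in replicate 2. Rinl and the zinc finger gene Zfp52 followed with 80.3 and 87.8 and with 82.1 and 82.0. Rinl has a CpG-richer start, and the strongest summits at Zfp52 lay at different sites, 8 and 906 bp upstream. Nlrp1b, an inflammasome sensor, had percentiles of 99.99 in both replicate 2 lists, with fold enrichments of 34.0 and 35.6 at 92 and 108 bp upstream, and no peak in replicate 1. Ptger2, a prostaglandin E2 receptor, had 97.5 and 98.1 and Ros1, a receptor tyrosine kinase, 94.3 and 98.4 in replicate 2. Ptger2 has a CpG-richer start, and its summits lay 493 and 461 bp downstream, at a CpG ratio of 0.377. What the replicate number stands for is not given in the labels, and the cell line, the culture and the precipitation behind it cannot be told apart.

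In peak strength the CpG-poor class stood below the other class in replicate 1 and not in replicate 2. The median percentile of the strongest peak was 56.6, 61.1, 59.3 and 64.0 at CpG-poor promoters (CDK6-WT replicates 1 and 2, then CDK6-K43M replicates 1 and 2), and 79.4, 56.1, 81.3 and 56.3 at the others. The values of the other class were higher in both replicate 1 lists than in both replicate 2 lists, and those of the CpG-poor class were lower. The mean difference of -8.03 had an exact two-sided sign-flip permutation p of 0.5. Median fold enrichments were 7.19, 6.42, 6.99 and 6.26 against 10.1, 6.16, 10.3 and 5.84, and median peak widths 339, 374, 383 and 359 bp against 523, 347, 616 and 332 bp. The share of promoters with a peak was higher in replicate 1 than in replicate 2 lists by 0.683 percentage points in the CpG-poor class and by 13.6 points in the other class (exact permutation p = 0.333 for either, two-sided).

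Summits at CpG-poor promoters were spread more widely around the start. Of the strongest summits 46.8% ± 1.37 (SD, n = 4) lay within 200 bp of the start, against 72.1% ± 3.84 in the other class, and 36.0% ± 4.57 lay more than 500 bp upstream, against 8.75% ± 2.39. The mean of the median distances was -124 bp against -33.3 bp. All 3 differences had the same sign in 4 of 4 lists, with an exact two-sided sign-flip permutation p of 0.13. The upstream share was 40.1% and 39.9% in the replicate 1 lists and 31.9% and 32.2% in the replicate 2 lists.

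**Figure D4:**
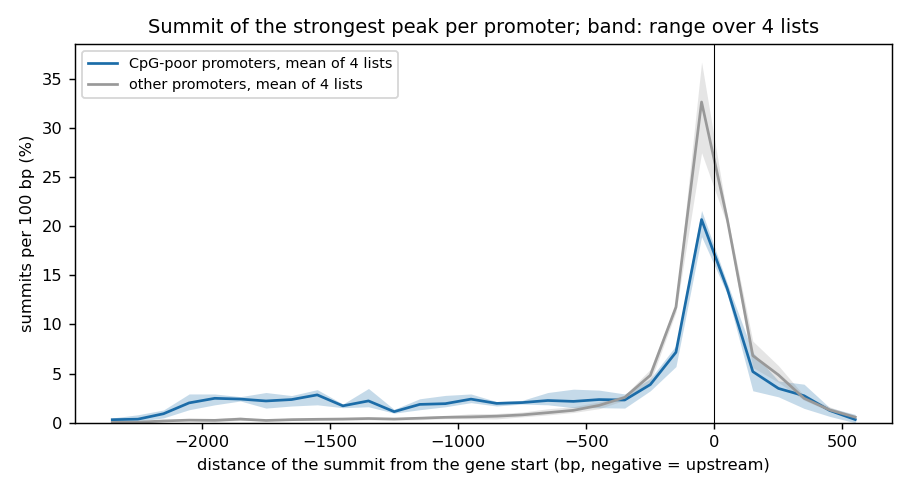
Distance of the strongest summit from the gene start (bp, x axis) against the share of summits per 100 bp (%, y axis) for CpG-poor (blue) and other (grey) promoters, with lines for the mean and bands for the range over the 4 lists. Both classes peak just upstream of the start, and the CpG-poor class has a plateau reaching to 2000 bp upstream.

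Sequence around the summits was searched for 15 motif words on both strands, 100 bp to each side of the strongest summit where the peak touched no window of the other class, with peaks shared by promoters counted once (552 and 536 CpG-poor summits in CDK6-WT and 612 and 556 in CDK6-K43M lists). The words for PU.1, ETS without CpG, RUNX, EBF, E-box, AP-1 and STAT were found at a larger share of CpG-poor summits than of their flanks and of other summits in 4 of 4 lists. The PU.1 word GAGGAAGT was present at 9.27% ± 0.524 (SD, n = 4) of CpG-poor summits, against 1.51% of flanks 1000 bp away, 2.33% of summits in the other class and 2.30% of all gene starts. The ETS word without CpG, CAGGAAGT, differs from it in the first letter and was present at 8.99% ± 1.57, against 1.87% of flanks, 2.57% of other summits and 2.48% of starts. The ETS word with CpG, CCGGAAGT, stood at 0.782% of CpG-poor and 9.21% of other summits, and at 0.422% of flanks and 4.39% of starts.

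The RUNX word TGNGGTN, with a pyrimidine at each N, was present at 19.1% ± 1.74 of CpG-poor summits, at 17.4 and 20.5% with CDK6-WT and 17.8 and 20.7% with CDK6-K43M. Flanks had 9.39%, other summits 9.37% and all starts 8.20%. The E-box word CAGCTG was present at 23.2% ± 0.270, against 11.0% of flanks, 11.2% of other summits and 12.4% of starts. The EBF word TCCCNNGGG was present at 9.97% ± 1.40, against 4.43% of flanks, 6.21% of other summits and 5.19% of starts. At all CpG-poor starts, bound or not, the shares were 3.52% for PU.1, 3.11% for the ETS word without CpG, 9.30% for RUNX, 14.99% for the E-box and 4.29% for EBF.

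The words for AP-1, IRF and STAT, which are factors induced by signals, stood at shares closer to those of the flanks. The AP-1 word TGANTCA stood at 7.67% of CpG-poor summits against 6.18% of flanks, 2.36% of other summits and 4.14% of starts. The IRF word GAAANNGAA stood at 8.13% against 7.04%, 3.93% and 4.88% in the same order, and above the flanks in 3 of 4 lists. The STAT word TTCNNNGAA stood at 7.70% against 6.17%, 4.82% and 4.99%. At all CpG-poor starts the shares were 6.97% for AP-1, 7.17% for IRF and 6.84% for STAT. The GATA word AGATAAG stood at 1.41%, below the 2.63% of flanks in all 4 lists, with 0.699% of other summits and 1.43% of starts. The TATA word TATAAA stood at 5.84%, also below its flanks at 10.2% in all 4 lists, with 2.42% of other summits and 8.13% of starts.

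Since the class was chosen for few CG dinucleotides, words that hold CG were bound to be rarer in it than in the other class, and the values of such words are given as a description with no test between the classes. The SP1 word GGGCGGGG stood at 4.88% of CpG-poor and 22.4% of other summits (18.7% of starts), and exceeded its flanks (1.15%) in all 4 lists and the share at all CpG-poor starts (2.78%). The NRF-1 word CGCATGCG stood at 0.178% against 4.08% (1.89% of starts), with 0.0861% of flanks. Its CpG-poor shares rest on very few summits and exceeded the flanks in 2 of 4 lists. The NFY word CCAATNN, with C or G and then a purine at N, stood at 7.42% against 14.9% (14.6% of starts), with 6.49% of flanks and 9.61% of CpG-poor starts. The CTCF motif stood at 2.34% ± 1.79 of CpG-poor and 1.05% of other summits (0.386% of starts), with 0.241% of flanks, and at 3.44 and 4.25% in the replicate 1 and 1.12 and 0.540% in the replicate 2 lists. For the 12 words that need no CG the comparison of CpG-poor with other summits had an exact two-sided sign-flip permutation p of 0.13 each, the smallest that 4 lists allow (Benjamini-Hochberg adjusted over 15 words, 0.134), except CTCF (p = 0.25, adjusted 0.25). The RUNX, EBF and NFY words hold a CG in some of their forms. Base composition differs between the classes, and its part in these shares was not tested.

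**Figure D5:**
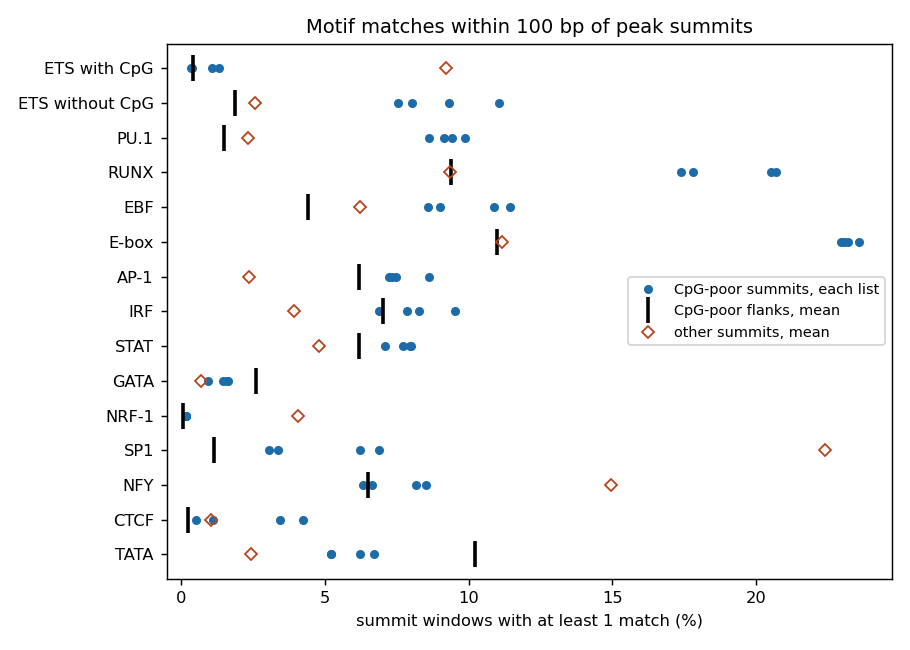
Share of summit windows with at least 1 match (%, x axis) for the 15 motif words (y axis), with points for CpG-poor summits in each of the 4 lists, bars for the mean of CpG-poor flanks and diamonds for the mean of summits in the other class. The means for PU.1, RUNX, E-box, EBF, the ETS word without CpG, AP-1, IRF, STAT and CTCF lie right of both, GATA and TATA lie left of the bars and right of the diamonds, and SP1, NFY, NRF-1 and the ETS word with CpG lie left of the diamonds.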

How the data were processed

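Anti-HA ChIP-seq gave 4 peak lists, 1 per library, grouped by variant and replicate number as in the titles. According to the submitters' processing notes and the study's methods, the authors trimmed reads (Trimmomatic 0.36), aligned them to mm10 (BWA 0.7.15), filtered them (SAMtools 1.3.1, bedtools) and called peaks per library with MACS2 2.1.0 at default settings. Per the deposited lists, each peak has a position, a fold enrichment (a ratio over local background), values of -log10 p and -log10 q, a score and, as other information, its summit offset. The deposited score was not used, and read totals and thus depth are not in the lists.

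Gene starts were the 5' ends of gene records. Percentiles rank the -log10 q of the strongest peak overlapping a window within its list, with ties averaged. The strongest peak of a promoter can lie at different sites in different lists. Motif shares over all gene starts used windows of 100 bp to each side. The CTCF motif was searched by a 12-letter consensus. Intervals are 95% Wilson intervals. Exact permutation tests were run over lists. The code was tested on simulated data. Members and gene lists were chosen with earlier results of these data known. Named genes were the 15 of highest mean percentile with peaks in all 4 lists and no overlap with a window of the other class, bound genes of the 9 lists (values for up to 6 per list, and for further ones chosen after their values were seen), the 5 highest per variant alone, the 3 highest per replicate number alone, the 3 genes to either side of the CpG limit and the 3 bound genes of lowest ratio. Some genes of these lists are not reported here. Family members were named after their values were seen. Alternatives were a -log10 q of at least 5 or 10, lists of equal length, 10000 peaks per list, summits inside the window, windows of 500 bp to each side, every transcript start, limits of 0.25 and 0.45, no overlap with the other class, merged regions, motif windows of 50 bp, windows shifted by 50000 bp, a replicate block, each library left out and, chosen after seeing the data, leaving out sensory receptor, defensin and keratin families. Python 3.11.15, pandas 2.3.3, numpy 2.4.6, pysam 0.24.0, samtools 1.23.1 and matplotlib 3.10.9 were used.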

Additional observations from a re-analysis of the deposited data

Results flagged for a closer look

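The difference in median peak percentile between CpG-poor and other promoters had opposite signs in the lists of different replicate numbers. It was -22.8 in CDK6-WT replicate 1 and -21.9 in CDK6-K43M replicate 1, against 4.97 in CDK6-WT replicate 2 and 7.66 in CDK6-K43M replicate 2. The difference between replicate numbers was not tested for this measure.

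The share of promoters of the other class with a peak, CDK6-K43M minus CDK6-WT, was 1.78 percentage points within replicate 1 and -1.64 points within replicate 2, each from 1 list per variant. This difference was not tested either. At CpG-poor promoters the same values were 0.860 and 0.202 points.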

How the results depend on the processing

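Of 140 values for 23 results under the alternatives, 120 kept their direction and, for counts, stayed within 1.5 times the reported value. The share difference between the classes stayed negative throughout, from -51.6 to -23.9 percentage points, and the excess over shifted windows was 3.39 points at 50000 bp. The number of bound CpG-poor promoters moved from 483 to 195 at a -log10 q of at least 10, 127 with 10000 peaks per list, 293 at a CpG limit of 0.25 and 1002 when every transcript start counted, which adds windows. With 10000 peaks per list the variant difference was -7.5 promoters, the replicate difference -0.512 percentage points and the percentile difference 0.564, each of opposite sign to the reported value. The cause was not tested. Promoters with CDK6-WT peaks alone numbered 3 at a -log10 q of at least 5, with 10000 peaks per list or in windows of 500 bp to each side, and those with CDK6-K43M peaks alone numbered 4 at a -log10 q of at least 10 or with 10000 peaks per list. With 1 library left out, fewer lists are required, and they numbered 16 (without CDK6-K43M replicate 2) to 54 (without CDK6-K43M replicate 1) and 48 (without CDK6-WT replicate 2) to 74 (without CDK6-K43M replicate 2). The variant difference was 2 promoters without CDK6-K43M replicate 1 and 82 without CDK6-K43M replicate 2, and the percentile difference -13.3 to -3.10. Over 13 alternatives, all but the CpG limits, bound B-lineage promoters numbered 12 to 25 and general leukocyte promoters 12 to 35, the lowest with 10000 peaks per list.

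With the replicate block the variant difference of 42 promoters had an exact permutation p of 0.5, the smallest that 2 pairs allow. Same-numbered lists deviated together over the 7905 CpG-poor promoters (correlation 0.593), but the labels do not say what the number marks. The lists hold no depth, so weak peaks missed for lack of reads cannot be told from absent binding.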

Other observations

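Outside the immune families, peaks at CpG-poor promoters were found at 7 of 69 zinc finger protein genes, 3 of 82 cytochrome P450 genes and 2 of 39 genes for UDP-glucuronosyltransferases and sulfotransferases. These were 10.1% (95% Wilson interval 5.002 to 19.5%), 3.66% (1.25 to 10.2%) and 5.13% (1.42 to 16.9%), and each interval holds the 6.11% of all CpG-poor promoters. Zfp36, which encodes the mRNA-decay factor tristetraprolin, had a peak in all 4 lists at a mean percentile of 87.7, and Zfp683, which encodes the lymphocyte regulator HOBIT, at 80.3. Ugt1a6a and Ugt1a7c had mean percentiles of 84.4 and 73.7, Cyp2w1 69.0, Cyp4f13 51.5 and Cyp4f18 37.3.

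Peak numbers followed the replicate number on some chromosomes and not on others. Chromosome 12 had 1473 and 1680 peaks in the replicate 1 lists of CDK6-WT and CDK6-K43M and 833 and 904 in their replicate 2 lists, a ratio of replicate 2 to replicate 1 of 0.551. The ratio was 0.764 on chromosome 5, 0.780 on chromosome 8 and 1.28 on chromosome 13. On chromosomes 1, 2 and 4 it was 1.08, 1.05 and 0.984, and the counts there did not separate by replicate number. CpG-poor promoters with a peak on chromosome 12 numbered 11 in either replicate 1 list and 8 in either replicate 2 list.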
